A study of Mus musculus with 11 samples.

Results

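Axon guidance in the developing brain is carried by a small set of ligand and receptor families. Eph receptors are tyrosine kinases on the cell surface that bind ephrins on neighbouring cells, the A-type ephrins held by a lipid anchor and the B-type by a transmembrane segment, and signals can run in both directions at the contact. Slits are secreted proteins that repel cells through Robo receptors. Netrins attract through Dcc and repel through the Unc5 receptors. In the embryonic cortex these families steer axons, and several of them also act on the placement of migrating neurons and on progenitors in the ventricular zone.

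The 36 genes described here are a list of these ligands and receptors chosen by name, with earlier results of these data known: 9 EphA receptors, 5 EphB receptors, 5 ephrin-A and 3 ephrin-B ligands, 3 Slits, 3 Robo receptors, 2 netrins and 6 netrin receptors. All 36 were found among the 48440 genes of the RNA-seq table and among the 23135 genes kept from the scRNA-seq matrices. RNA-seq was from neural progenitor cells (NPCs) cultured from E14.5 mouse embryos, with 3 WT and 3 Syncrip conditional knockout (cKO) cultures. The scRNA-seq was from the dorsal cortex of 1 WT and 1 cKO embryo carried by the same dam at E14.5. The cKO mice carry a Syncrip allele with loxP sites around 3 of its early exons and the Emx1-Cre driver, on a C57BL/6 background, and the WT animals are the controls. Syncrip is an RNA-binding protein of the hnRNP family. Emx1-Cre acts in the dorsal telencephalon, so cells that arise in the ganglionic eminences (GE) lie outside its main domain. Whether the 3 cultures of a genotype each came from a separate embryo is not stated, so p-values measure the spread between these cultures, part of which may be technical.

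The RNA-seq libraries held 16962903 to 22708400 counts. Syncrip itself ran from 77.9 to 79.9 in the WT and from 81.5 to 90.3 in the cKO cultures, in counts per 1e6 counts (CPM), a whole-gene count that does not test for the loss of 3 exons. Counts of Y-linked genes were found in WT cultures 1 and 2 and cKO culture 1 (0 or 1 count in the other 3), so each genotype held cultures of both sexes and thus of more than 1 embryo. Reads in parts of the genome shared by overlapping genes had not been counted: of 10809 genes that lie wholly inside other genes, 10806 had no count, among them Sox2, Tubb3, Gfap, Nefl and Dlx1. The summed CPM of astrocyte markers ran from 3949 to 4040 in WT and from 2565 to 2896 in cKO cultures, with 4 of 5 tested markers lower in cKO and Gfap at 0 throughout. Excitatory neuron markers summed to 19.9 to 32.0 CPM in WT and 2.62 to 3.33 in cKO, with 2 of 3 tested lower. General neuron markers summed to 2080 to 2432 and 2210 to 2345 CPM, with 6 of 8 tested lower, and progenitor markers to 1829 to 2465 and 2936 to 3240 CPM, with 2 of 7 higher and 2 lower. Endothelial markers were near 0, at 1.89 to 2.54 CPM in WT and 1.75 to 1.98 in cKO, with Cldn5 and Cdh5 at 0. GABAergic markers summed to 22.2 to 26.3 and 21.9 to 28.2 CPM, with 1 of 3 tested lower (Dlx2), and oligodendrocyte lineage markers to 2511 to 2976 and 2477 to 2972 CPM, with Olig1 and Pdgfra higher and Mbp lower of 6 tested. Microglia markers lay at 0.39 to 1.12 and 1.32 to 2.27 CPM, with the 1 tested higher and C1qa and C1qb at 0. The sums of the astrocyte, excitatory neuron, progenitor and microglia markers were apart between genotypes, and the sums of the other lists overlapped. The part of these marker levels in the values of the guidance genes was not tested. In bulk cultures fewer cells of a type and less RNA per cell cannot be told apart.

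In the cultures, Syncrip cKO was accompanied by shifts in both directions among the guidance genes. Dcc was 2.27-fold higher in cKO and the netrins, Slit1, Epha2, Epha3 and Robo3 rose, while the B-type ephrins Efnb2 and Efnb3 fell to 0.495 and 0.485 of the WT level and Unc5b to 0.371. Of the 36 genes, 34 had enough counts to be tested. At an adjusted p under 0.05, 9 were higher in cKO (19.7% of all 14432 genes tested were higher) and 9 were lower (19.8% of all genes), 18 in either direction against 39.5% of all genes. The values of the 3 WT and 3 cKO cultures did not overlap for 21 of the 34, 10 with cKO above and 11 with cKO below, against 50.4% of all genes. The median log2 fold change was -0.06 over the 34 and 0.002 over all genes tested. Calls in both directions were thus common in the whole table, and the counts are not by themselves particular to guidance genes. Fold changes, their standard errors (SE) and adjusted p-values below are from edgeR's quasi-likelihood test over all genes.

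**Figure D1:**
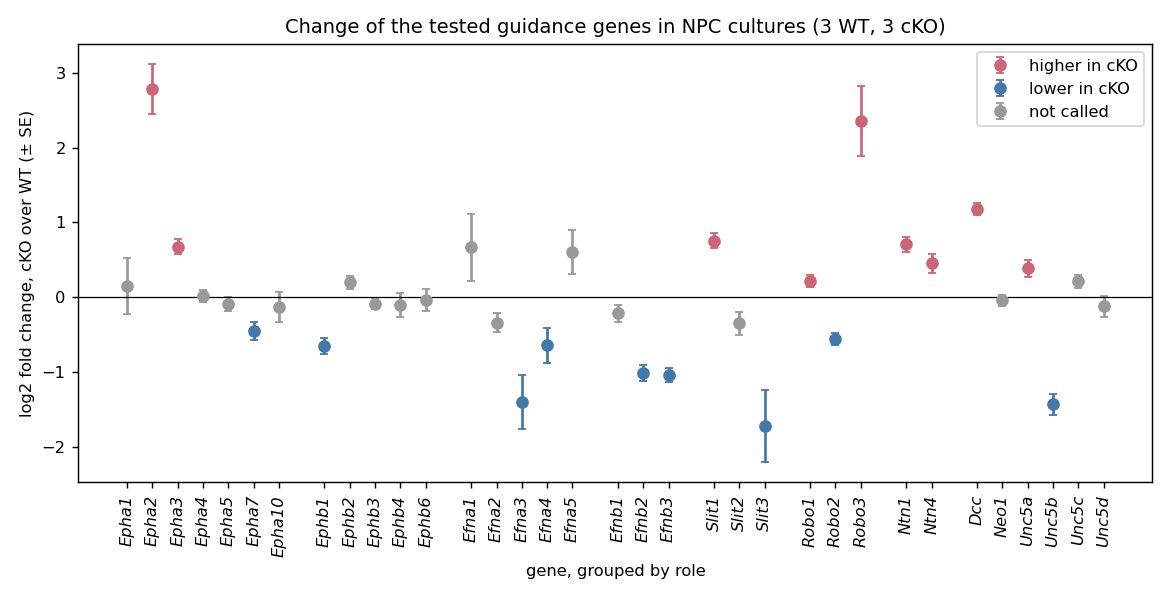
Log2 fold change of cKO over WT for the 34 tested guidance genes in NPC cultures, grouped by role, with bars for ± 1 SE (3 cultures per genotype). Epha2 and Robo3 lie highest, at 2.79 and 2.36, Slit3, Unc5b and Efna3 lowest, and of the 8 ephrins none was called higher.

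The promoters of 4 of the called genes are shown here: Epha2 and Epha3, which rose, and Unc5b and Efnb2, which fell. These 4 had the largest changes in each direction among the genes considered, with 1 RefSeq start and at least 1 mean CPM. Dcc was left out of the choice, although its log2 fold change of 1.18 was above that of Epha3 (0.67). Each run covers 250 bases before to 50 bases after the annotated start on the gene's own strand, in RefSeq coordinates of GRCm38.p6. They lie at chr4:141300971-141301270 (plus strand), chr16:63864126-63864425 (minus), chr10:60831532-60831831 (minus) and chr8:8661193-8661492 (minus). Capitals mark the GC box letters GGGCGG on either strand and, in Epha2, the palindrome TGACGTCA of the cyclic AMP response element.
Epha2: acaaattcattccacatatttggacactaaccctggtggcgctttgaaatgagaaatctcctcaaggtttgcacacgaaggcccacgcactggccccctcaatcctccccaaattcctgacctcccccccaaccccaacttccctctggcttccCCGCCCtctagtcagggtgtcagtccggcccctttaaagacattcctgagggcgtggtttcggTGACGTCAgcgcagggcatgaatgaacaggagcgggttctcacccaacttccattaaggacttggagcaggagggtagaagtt
Epha3: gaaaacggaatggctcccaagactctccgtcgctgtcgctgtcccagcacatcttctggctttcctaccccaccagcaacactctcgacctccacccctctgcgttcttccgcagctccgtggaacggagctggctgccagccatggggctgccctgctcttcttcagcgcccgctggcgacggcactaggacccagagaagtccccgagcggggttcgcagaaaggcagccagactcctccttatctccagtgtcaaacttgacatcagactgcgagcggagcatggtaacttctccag
Unc5b: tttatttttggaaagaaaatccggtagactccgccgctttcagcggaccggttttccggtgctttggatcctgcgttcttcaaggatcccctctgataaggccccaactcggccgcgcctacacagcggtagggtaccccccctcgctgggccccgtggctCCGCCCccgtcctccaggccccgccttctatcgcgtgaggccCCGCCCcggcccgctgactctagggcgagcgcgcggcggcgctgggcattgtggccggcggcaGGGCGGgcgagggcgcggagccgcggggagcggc
Efnb2: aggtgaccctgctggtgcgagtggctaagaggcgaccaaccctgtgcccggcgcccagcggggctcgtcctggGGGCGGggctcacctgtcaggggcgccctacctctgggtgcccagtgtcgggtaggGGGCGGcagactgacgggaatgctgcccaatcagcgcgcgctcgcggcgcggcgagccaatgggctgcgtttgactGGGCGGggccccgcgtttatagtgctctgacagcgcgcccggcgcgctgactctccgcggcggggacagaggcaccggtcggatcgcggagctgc
The GC box letters occur once in the Epha2 window, 3 times each in those of Unc5b and Efnb2, and not in that of Epha3. Of all 32851 RefSeq windows of this length, 35.7% hold GGGCGG on either strand. So do 26 of the 36 windows of the 31 guidance genes whose windows were used. TGACGTCA is found in 1.79% of all windows and in 1 of those 36. The letters TGGGAA, part of the site bound by the Notch effector Rbpj, and the E-box CAGCTG were in none of the 4 windows shown, against 25.6% and 16.3% of all windows. A match describes letters in a window and says nothing of binding.

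Among the EphA receptors, 2 rose and 1 fell of 7 tested. Epha2, a receptor better known from epithelia and vessels, was nearly silent in WT cultures, at 0.270, 0.724 and 0.491 CPM, and at 3.58, 3.55 and 2.99 CPM in cKO cultures. All cKO cultures lay far above the highest WT culture, on 6 to 13 counts in WT and 61 to 73 in cKO (log2 fold change 2.79, SE 0.34, adjusted p = 2.57e-05). Epha3, a receptor for A-type ephrins, stood at 78.3, 72.2 and 56.5 in WT and at 108, 108 and 113 CPM in cKO. All cKO cultures lay above all WT cultures (0.67, SE 0.10, adjusted p = 0.000172). Epha7 fell from 17.6, 17.8 and 14.54 CPM to 11.8, 12.1 and 12.6 CPM, again without overlap (-0.45, SE 0.13, adjusted p = 0.0113).

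The other EphA receptors gave no call. Epha4, which responds to both classes of ephrin, was level, at 85.0, 76.7 and 84.3 CPM in WT and 84.9, 83.9 and 79.5 in cKO (0.01, SE 0.08, adjusted p = 0.907). Epha5 spanned 240 to 277 CPM in WT and 225 to 275 in cKO (-0.09, SE 0.09, adjusted p = 0.472). Epha1 and Epha10 were low, with fold changes of 0.15 and -0.13 on the log2 scale and standard errors of 0.38 and 0.20. Epha6 and Epha8 were not tested, with at most 18 and 7 counts in any culture.

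Of the 5 EphB receptors, which bind B-type ephrins, Ephb1 alone was called. Its values were 69.4, 71.4 and 86.6 CPM in WT and 43.1, 54.0 and 47.2 CPM in cKO cultures. The highest cKO culture stayed below the lowest WT culture (-0.66, SE 0.11, adjusted p = 0.000353). Ephb2 lay at 90.6 to 110 CPM in WT and 107 to 123 CPM in cKO, overlapping (0.20, SE 0.09, adjusted p = 0.0779). Ephb3, Ephb4 and Ephb6 differed by -0.08, -0.10 and -0.04 on the log2 scale, each less than its standard error or close to it.

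Ephrins moved only downward where they were called, in 4 of 8 genes. Efnb3, a transmembrane ephrin of neurons and of the midline, stood at 59.9, 67.1 and 61.8 CPM in WT and between 29.6 and 31.9 CPM in the 3 cKO cultures. The genotypes were separated by a gap wider than the spread within either (-1.04, SE 0.09, adjusted p = 1.80e-06). Efnb2, a ligand of Ephb receptors and Epha4, fell alongside, from 41.3, 47.3 and 55.5 CPM to 24.5, 24.2 and 22.7 CPM (-1.01, SE 0.11, adjusted p = 1.12e-05). Spans shared with other genes cover 26.0% of the Efnb2 gene, but no exon base of Efnb2 or Efnb3. The third transmembrane ephrin, Efnb1, is X-linked and overlapped, at 32.3, 41.2 and 42.1 in WT and 30.1, 34.9 and 34.7 CPM in cKO (-0.21, SE 0.11, adjusted p = 0.151). In a fit with culture sex as a term it was -0.28 with an adjusted p of 0.0464.

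The lipid-anchored ephrins were low in these cultures. Efna3 stood at 1.89, 2.90 and 3.57 in WT and 1.57, 0.990 and 0.579 CPM in cKO (-1.41, SE 0.36, adjusted p = 0.00727). The sets of values were apart by a small margin, on 12 to 80 counts, and 23.1% of the exon bases of Efna3 and 11.2% of those of Efna4 lie in a shared span. Of the other called genes, Ephb1 had 13.2%, Ntn4 7.5% and Unc5a 0.8% of exon bases in such spans. No value was obtained for Epha3, Dcc, Unc5b and the Robo receptors. Efna4 was at 4.10, 3.84 and 5.49 in WT and 2.94, 3.50 and 2.22 CPM in cKO (-0.64, SE 0.23, adjusted p = 0.0408), a call that was lost without WT culture 3, cKO culture 1 or cKO culture 3, at adjusted p of 0.155, 0.0781 and 0.176. Efna2 did not pass, at 14.7, 19.4 and 16.1 CPM in WT and 12.8, 12.6 and 14.1 in cKO (-0.34, SE 0.13, adjusted p = 0.0535), nor did Efna5, with 20 to 36 counts in a culture (0.61, SE 0.30, adjusted p = 0.120). Efna1 had 10 to 29 counts and overlapped between genotypes.

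**Figure D2:**
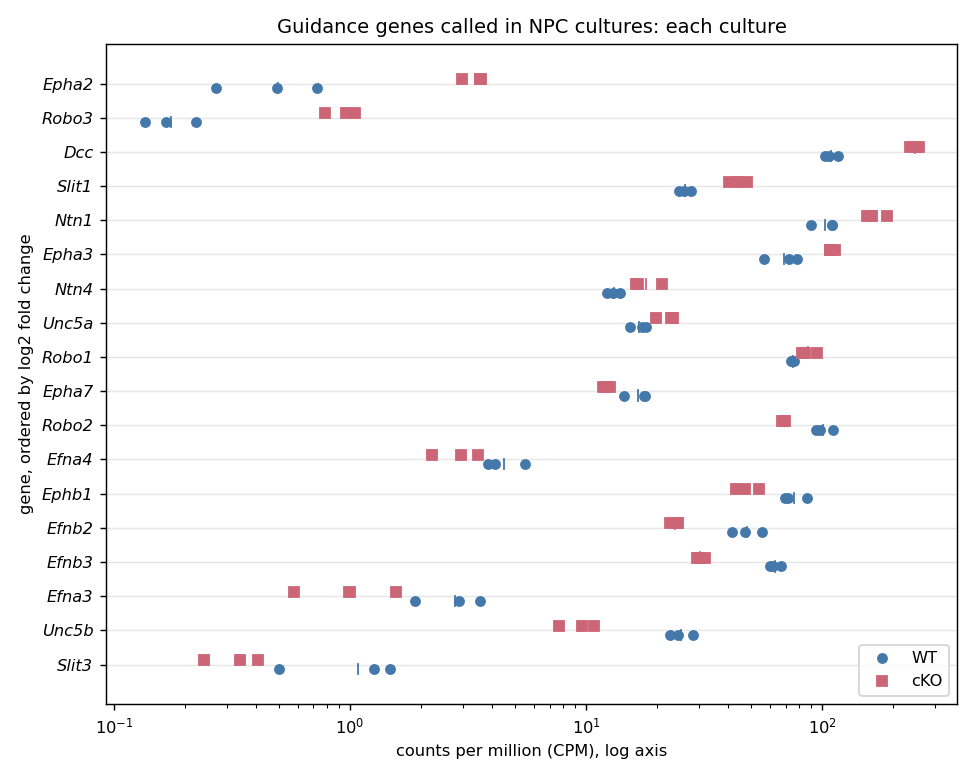
CPM of the 18 called guidance genes in each of the 3 WT (circles) and 3 cKO (squares) cultures on a log axis, with a short line at each genotype's mean. For every gene shown the squares lie wholly to one side of the circles, from Epha2 at the top to Slit3 at the bottom.

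The 3 Slits differed from one another. Slit1 was at 24.7, 26.0 and 27.7 in WT and 40.3, 48.1 and 44.0 CPM in cKO cultures. Its lowest cKO culture was well above the highest WT culture (0.75, SE 0.10, adjusted p = 5.03e-05). Slit2 was at 7.79, 8.47 and 8.30 in WT and 7.26, 6.17 and 5.83 CPM in cKO, without overlap and without a call (-0.35, SE 0.16, adjusted p = 0.0915). Slit3 was barely detected, at 1.26, 0.501 and 1.47 in WT and 0.343, 0.408 and 0.241 CPM in cKO, which is 5 to 33 counts (-1.73, SE 0.48, adjusted p = 0.0118). Without WT culture 3 or cKO culture 3 the Slit3 call was lost, at adjusted p of 0.0535 and 0.0575.

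All 3 Robo receptors were called, not in the same direction. Robo2 fell from 111, 98.1 and 94.4 CPM to 68.8, 69.9 and 67.3 CPM, with a clear gap between the genotypes (-0.56, SE 0.08, adjusted p = 0.000114). Robo1 rose slightly, from 76.1, 73.9 and 74.7 CPM to 95.3, 84.4 and 82.3 CPM, and the small step was larger than the spread within WT (0.22, SE 0.08, adjusted p = 0.0399). That call held in 7 of 14 alternative analyses and was lost in the other 7, among them DESeq2 at 0.0519 and the removal of any culture but WT 1 (0.0685 to 0.234). Robo3, which in commissural neurons tempers the response to Slit, was near the detection limit, at 0.135, 0.167 and 0.223 in WT and 0.785, 1.05 and 0.964 CPM in cKO. That is 3 to 5 counts against 16 to 20, without overlap (2.36, SE 0.47, adjusted p = 0.00135).

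The netrins and Dcc rose together. Dcc, the receptor through which netrin-1 attracts axons, was at 116, 106 and 103 in WT and 256, 249 and 235 CPM in cKO cultures. The lowest cKO culture was far above the highest WT culture (1.18, SE 0.08, adjusted p = 1.18e-07), and the log2 fold change stayed between 1.15 and 1.23 over all 14 alternatives. Ntn1 was at 89.6, 110 and 110 in WT and 155, 188 and 163 CPM in cKO (0.71, SE 0.10, adjusted p = 7.49e-05). Ntn4, a laminin-related netrin of basement membranes, was at 13.1, 12.3 and 14.0 CPM in WT and 20.9, 16.7 and 16.2 in cKO (0.45, SE 0.13, adjusted p = 0.0137). Both netrins were apart between genotypes in all cultures, but the Ntn4 call was lost without WT culture 2 (adjusted p = 0.0590) or cKO culture 1 (0.0959).

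The repulsive netrin receptors split. Unc5b, which is also a receptor of vascular endothelium, fell from 22.7, 28.3 and 24.4 CPM to 7.65, 10.8 and 9.59 CPM. No cKO culture reached a WT level (-1.43, SE 0.14, adjusted p = 4.12e-06). Endothelial markers named above were near 0 in both genotypes, and the part of any cell type in the Unc5b values was not tested. Unc5a rose from 15.4, 17.9 and 17.2 CPM to 19.8, 22.951 and 23.3 CPM (0.39, SE 0.11, adjusted p = 0.0146), a call lost without cKO culture 2 or 3 (0.0596 and 0.0768). Unc5c lay at 72.8 to 92.8 CPM in WT and 90.9 to 97.1 CPM in cKO, overlapping (0.21, SE 0.09, adjusted p = 0.0777). Unc5d (-0.12, SE 0.14) and Neo1 (-0.04, SE 0.08), a relative of Dcc that also binds netrins, were not called, and Neo1 sat at 307 to 348 CPM in all 6 cultures.

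A list of 56 other genes of these pathways, 17 partners and co-receptors and 39 intracellular effectors, was read beside them. Of 51 tested, 11 were higher and 10 lower, 5 and 4 among the partners and 6 and 6 among the effectors, with a median log2 fold change of -0.05, against 19.7% higher and 19.8% lower among all genes. The largest change was a fall of Ntng2, a membrane-anchored relative of the netrins, from 43.2, 55.4 and 70.6 CPM to 18.7, 18.4 and 18.1 CPM (-1.62, SE 0.15, adjusted p = 1.83e-06). Its sister Ntng1 rose, from 4.14, 2.95 and 4.28 to 6.47, 9.03 and 9.79 CPM (1.14, SE 0.21, adjusted p = 0.000684). Nell2, a ligand of Robo3, rose from 68.9, 74.9 and 83.5 to 136, 179 and 172 CPM (1.10, SE 0.10, adjusted p = 2.78e-06). Genotypes did not overlap for any of these 3. Flrt2, a ligand of the Unc5 receptors, was lower in cKO (-0.92, SE 0.10, adjusted p = 1.40e-05), as were Draxin, a secreted ligand of Dcc (-0.77, SE 0.16, adjusted p = 0.00173), and Ablim1, an actin-binding protein (-0.58, SE 0.11, adjusted p = 0.000679).

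The scRNA-seq shows which cells of the cortex carry these transcripts. After filtering, 8214 WT and 9559 cKO cells remained, with medians of 11705 and 11016 UMIs per cell (a UMI marks 1 captured transcript), and 22 barcodes occurred in both libraries. Clusters were made without the guidance genes and named from marker lists. They held 961 WT and 1320 cKO apical progenitor (AP)-like cells, 713 and 746 intermediate progenitor (IP)-like cells, 1845 and 2084 migrating neuron-like cells, 2481 and 2581 immature neuron-like cells, and 1188 and 1633 GE-like cells. There were also 63 and 112 Cajal-Retzius-like cells and small groups of endothelial-like (115 and 130), pericyte-like (27 and 18), fibroblast-like (13 and 26), microglia-like (17 and 16) and red blood cell-like cells (55 and 56), and 736 and 837 cells stayed unnamed. Levels are UMIs summed over a class and given as CPM, and are compared for 1 gene between classes, not between genes. The embryos differed in sex, since Y-linked genes had 22062 UMIs in WT and 211 in cKO. With 1 embryo per genotype no test was made, and the 95% intervals cover counting error only.

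**Figure D3:**
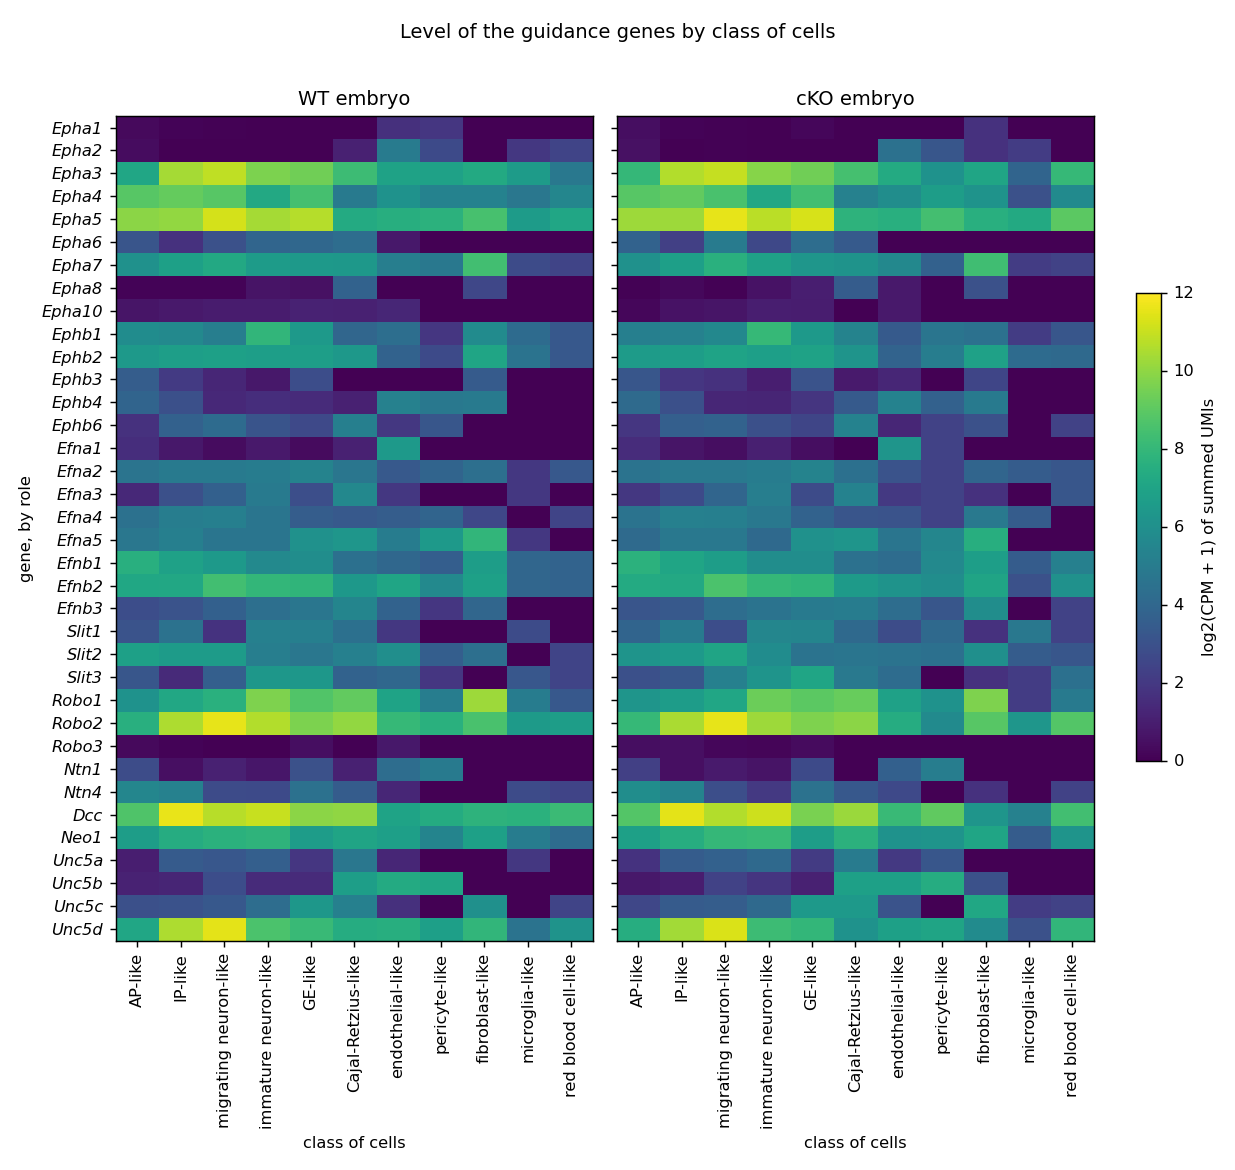
Level of the 36 guidance genes, as log2(CPM + 1) of summed UMIs, in 11 classes of cells of the WT (left) and cKO (right) embryo. Dcc, Unc5d, Robo2 and Epha3 are brightest from the IP-like to the immature neuron-like classes, and Epha5 in migrating neuron-like and then GE-like cells. Efna1 and Epha2 stand out in endothelial-like cells.

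For 26 of the 36 genes the class with the highest level was the same in both embryos. It was the AP-like class for 3, the IP-like for 2, the migrating neuron-like for 5, the immature neuron-like for 3, the GE-like for 2, the Cajal-Retzius-like for 4, the endothelial-like for 3, the fibroblast-like for 3 and the pericyte-like class for 1. Genes at the top of a class of under 50 cells rest on few UMIs. Genes abundant in neurons also gave UMIs in red blood cell-like cells, where Robo2 stood at 102 CPM in WT and 446 in cKO, Dcc at 289 and 327, and Epha5 at 138 and 507. Epha3 stood there at 26.6 CPM in WT and 262 in cKO, and Unc5d at 71.0 and 237. Whether free RNA or mixed droplets gave these UMIs was not tested, and levels of these genes in minor classes at or below them are not read as expression.

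A receptor set was high in the newborn excitatory lineage. Dcc peaked in IP-like cells, at 3071 CPM in WT and 2917 in cKO, with 1690 and 1587 CPM in migrating and 2050 and 2147 CPM in immature neuron-like cells, and was lower in AP-like cells (407 and 438 CPM). Unc5d was highest in migrating neuron-like cells, at 2943 and 2563 CPM, next in IP-like cells at 1477 and 1290 CPM, and fell to 389 and 295 CPM in immature neuron-like cells. Robo2 followed the same class, at 2999 and 2983 CPM, with 1548 and 1201 CPM in immature neuron-like and 191 and 263 CPM in AP-like cells. Epha3 (1838 and 1979 CPM) and Epha5 (2423 and 3010 CPM) were also highest there, although at cluster resolution 1.2 Epha3 was highest in IP-like cells in both embryos. For Epha5 the GE-like class came next in both embryos, at 1611 and 2481 CPM. Called doublets held much of the AP-like signal of Robo2, Unc5d and Epha3. Without them the AP-like class went from 961 and 1320 to 904 and 1201 cells. Over both embryos its Robo2 UMIs went from 7499 to 2870, its Unc5d UMIs from 5141 to 1735 and its Epha3 UMIs from 6606 to 3585. For Dcc, Unc5d, Robo2, Epha3 and Epha5 the counting intervals of the highest and the next class were apart in both embryos. Epha4 was spread over IP-like (566 and 549 CPM), AP-like (466 and 473 CPM) and migrating neuron-like cells (467 and 374 CPM) and was low in immature neuron-like cells (149 and 145 CPM).

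Ephb1 (236 and 262 CPM), Slit1 (36.9 and 44.6 CPM) and Neo1 (224 and 275 CPM) were highest in immature neuron-like cells. For Neo1 the highest class was the migrating neuron-like class in both embryos at resolutions 0.4 and 1.2. Slit1 was about as high in GE-like cells, at 35.6 and 43.4 CPM, with overlapping intervals, was highest there in both embryos once called doublets were removed, and fell to 2.38 and 6.14 CPM in migrating neuron-like cells. Robo1 rose from 69.4 and 76.4 CPM in AP-like cells to 821 and 624 CPM in immature neuron-like cells, although the 13 and 26 fibroblast-like cells were higher, at 1223 and 807 CPM. Among ligands, Efnb2 was highest in migrating neuron-like cells (327 and 382 CPM), whereas Efnb1 was highest in AP-like cells (186 and 205 CPM) and fell stepwise to 48.8 and 59.0 CPM in immature neuron-like cells. Ntn4 was also an AP-like gene, at 44.5 and 58.1 CPM, with IP-like cells next (37.6 and 40.7 CPM, intervals overlapping in WT) and immature neuron-like cells far below (5.38 and 2.98 CPM). Efna2 and Slit3 were highest in GE-like cells, at 40.0 and 39.8 CPM and at 81.5 and 131 CPM, although in WT the Slit3 interval overlapped that of immature neuron-like cells (80.7 CPM). Unc5c was highest in GE-like cells in WT (80.5 CPM) but in the 26 fibroblast-like cells in cKO (139 CPM, against 90.04 in GE-like cells).

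Some of the genes that changed in the cultures were scarce in AP-like cells of the embryo. Unc5b was at 1.24 and 0.733 CPM in AP-like cells, against 159 and 111 CPM in endothelial-like, 137 and 171 CPM in pericyte-like and 104 and 113 CPM in Cajal-Retzius-like cells. Epha2 was at 30.4 and 21.4 CPM in endothelial-like cells and at 0.309 and 0.471 CPM in AP-like cells. Ntn1 stood at 30.1 and 32.6 CPM in pericyte-like, 18.4 and 11.8 CPM in endothelial-like and 5.94 and 3.82 CPM in AP-like cells, and Robo3 did not exceed 0.707 CPM in any class. Efna1 was an endothelial-like gene too, at 89.8 and 76.1 CPM. Efna3, Ephb6, Unc5a and Epha8 were highest in Cajal-Retzius-like cells, at 47.9, 35.3, 26.2 and 12.5 CPM in WT.

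In AP-like cells, the apical progenitor class of the embryo, 24 of the 36 genes had at least 200 UMIs over both embryos and 6 of these differed by at least 1.5-fold, 3 in each direction, against 2.03% of all 10382 genes with as many UMIs. Slit1 was higher in cKO, at 7.33 CPM in WT (95 UMIs) and 13.6 CPM in cKO (260 UMIs), a log2 ratio of 0.89 (0.55 to 1.25). Epha3 was at 138 and 252 CPM (0.86, 0.79 to 0.94), and Epha6 at 7.87 and 12.7 CPM (0.69, 0.35 to 1.04). With called doublets removed Epha3 was at 0.64 (0.54 to 0.74), on 3585 in place of 6606 UMIs over both embryos. In red blood cell-like cells Epha3 stood at 26.6 CPM in WT and 262 in cKO, in cKO above its AP-like level. The part of free RNA in the AP-like Epha3 ratio was not tested. Lower were Ephb1, from 56.2 to 34.8 CPM (-0.69, -0.85 to -0.54), Efna5, from 25.8 to 16.7 CPM (-0.63, -0.85 to -0.40), and Slit2, from 112 to 73.7 CPM (-0.60, -0.71 to -0.50). When each cell was given the same weight only the 3 higher genes remained past 1.5-fold, with Ephb1, Efna5 and Slit2 at -0.41, -0.43 and -0.43. The median log2 ratio of the 24 was 0.15, against -0.01 over all genes.

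**Figure D4:**
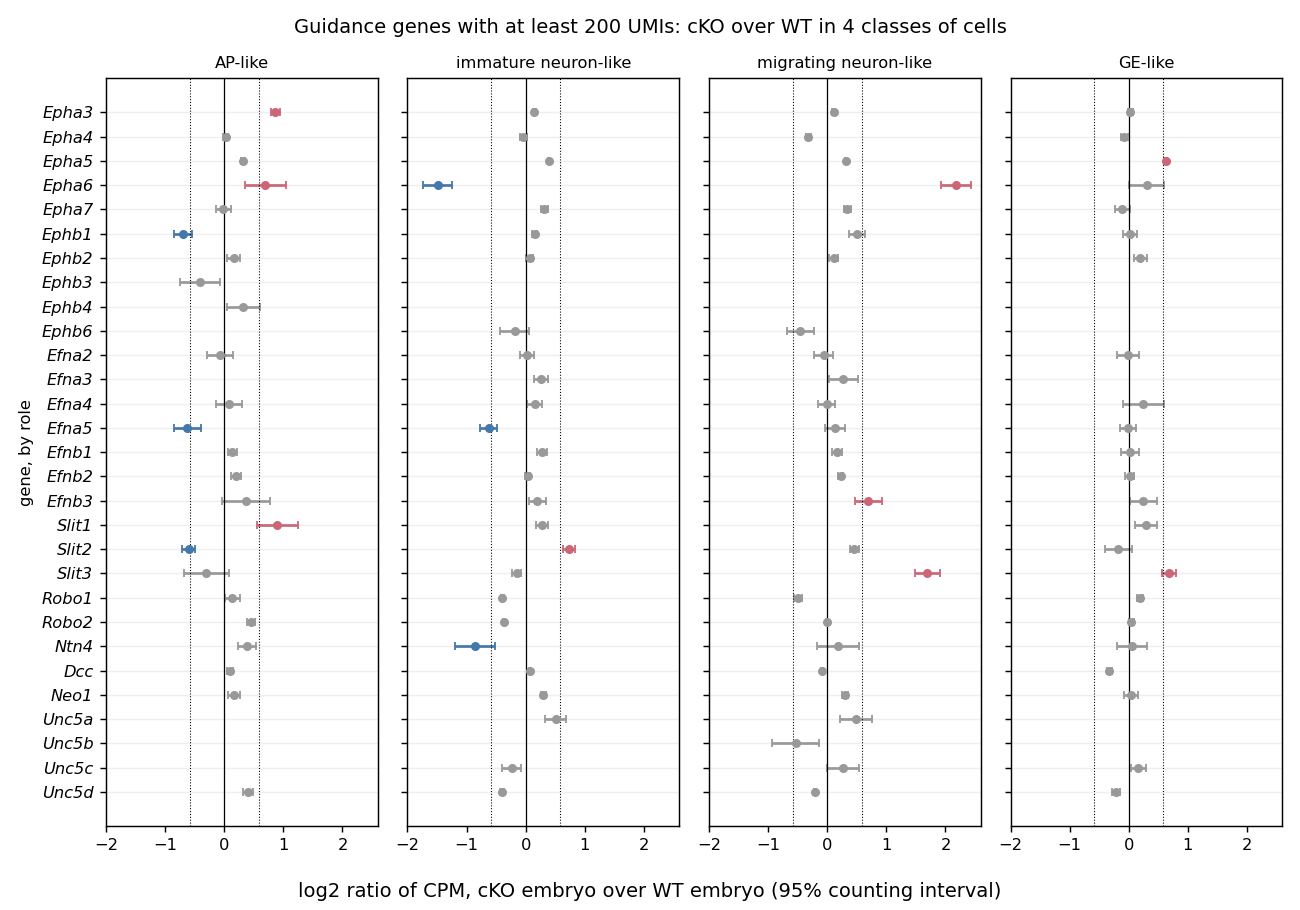
Log2 ratio of CPM in the cKO over the WT embryo, with 95% counting intervals, in 4 classes of cells, for guidance genes with at least 200 UMIs in the class. Dotted lines mark 1.5-fold, and genes past it are coloured. Slit2 lies left in AP-like and right in immature neuron-like cells, and Epha6 lies at opposite sides in migrating and immature neuron-like cells.

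Of the genes called in the cultures, 5 that rose and 7 that fell had at least 200 UMIs in AP-like cells. Epha3 (0.67 in cultures and 0.86 in AP-like cells), Slit1 (0.75 and 0.89) and Ntn4 (0.45 and 0.39) were higher in cKO in both. With called doublets removed the AP-like Epha3 ratio was 0.64. Epha3 also stood at 26.6 CPM in WT and 262 in cKO in red blood cell-like cells, and the part of free RNA was not tested. Dcc was 1.18 in cultures and 0.10 in AP-like cells, with an interval of 0.05 to 0.15, and -0.20 once called doublets (298 and 444 over all cells) were removed. Robo1 likewise went from 0.14 to -0.14. Of the 7 that fell in cultures, Ephb1 was lower in AP-like cells too (-0.66 and -0.69). With called doublets removed the AP-like Ephb1 ratio was -1.18 (-1.37 to -0.99) on 988 UMIs. Efnb2 (-1.01 and 0.20, interval 0.11 to 0.28) and Robo2 (-0.56 and 0.46, interval 0.39 to 0.53) were higher in the AP-like cells of the cKO embryo. Much of the AP-like Robo2 signal lay in called doublets, and Robo2 also stood at 102 and 446 CPM in red blood cell-like cells. The part of free RNA in the Robo2 ratio was not tested. Efnb3 (0.36, -0.04 to 0.78), Efna4, Epha7 and Slit3 had intervals that included 0. Slit3 was at -1.43 on 109 UMIs with doublets removed and at 0.58 with equal weight per cell. The cultures and the embryos share no sample, and the difference between them was not tested.

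**Figure D5:**
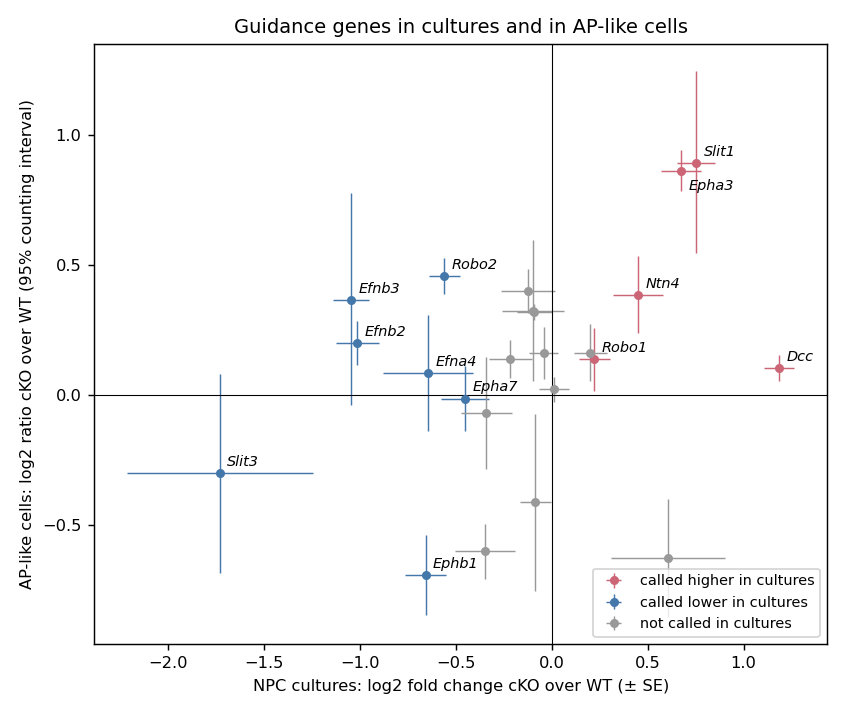
Log2 fold change in NPC cultures (horizontal, ± 1 SE) against the log2 ratio in AP-like cells (vertical, 95% counting interval) for guidance genes tested in cultures with at least 200 UMIs in AP-like cells. Epha3 and Slit1 lie upper right and Ephb1 lower left, while Robo2, Efnb2 and Efnb3 lie upper left and Dcc far right near 0 on the vertical axis.

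IP-like cells had 21 genes with at least 200 UMIs and none past 1.5-fold, against 1.48% of all genes. The widest were Robo1, from 144 to 96.9 CPM (-0.57, -0.69 to -0.46), and Slit1, from 22.2 to 30.2 CPM (0.45, 0.19 to 0.70). Excitatory neuron-like cells as a whole, migrating and immature together, also had none of 27 past 1.5-fold (2.59% of all genes), with Slit2 just inside at 0.58 (0.52 to 0.65) and Robo1 at -0.42 (-0.44 to -0.40). Epha6 stood at 0.38 over these cells and at -1.29 without the single cluster that is uneven between the embryos.

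The migrating and immature neuron-like classes were also read apart, a split that was not among the planned counts. Of the alternatives, only leaving out the uneven cluster was applied to ratios by stage. In immature neuron-like cells 4 of 26 genes passed 1.5-fold, against 2.05% of all genes. Slit2 was higher in cKO, from 33.7 to 56.2 CPM (0.74, 0.64 to 0.84). Epha6 was lower, from 14.0 to 4.98 CPM (-1.49, -1.74 to -1.25), as were Ntn4, from 5.38 to 2.98 CPM (-0.85, -1.19 to -0.52), and Efna5, from 24.6 to 15.9 CPM (-0.63, -0.78 to -0.48). Robo1, Robo2 and Unc5d were each lower by about 0.4 on the log2 scale without reaching 1.5-fold: Robo1 at -0.40 (-0.42 to -0.37), Robo2 at -0.37 (-0.38 to -0.35) and Unc5d at -0.40 (-0.43 to -0.36). Epha5 was higher, from 1327 to 1742 CPM (0.39, 0.38 to 0.41).

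In migrating neuron-like cells 3 of 26 genes passed, all higher in cKO, against 3.48% of all genes: Epha6 from 6.93 to 31.3 CPM (2.18, 1.92 to 2.44), Slit3 from 11.2 to 36.3 CPM (1.69, 1.49 to 1.90) and Efnb3 from 11.6 to 18.8 CPM (0.69, 0.47 to 0.92). These 3 rest on 1 cluster, led by Tafa1 and Tfap2d and with Epha6 among its leading genes, which held 160 WT and 546 cKO cells. Without it Epha6 was at -0.30 on 100 UMIs, Slit3 at 0.29 and Efnb3 at 0.24, none was past 1.5-fold, and Robo1 was lower instead, from 181 to 111 CPM (-0.70, -0.78 to -0.63). Within that cluster itself Epha6 rose from 53.6 to 121 CPM and Slit3 from 16.4 to 108 CPM.

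GE-like cells had 2 of 23 genes past 1.5-fold, both higher in cKO, against 0.991% of all genes. Epha5 was at 1611 in WT and 2481 CPM in cKO (0.62, 0.60 to 0.65), and Slit3 at 81.5 and 131 CPM (0.69, 0.57 to 0.81). Epha5 was higher in cKO in every one of the main neural classes, by 0.32 in AP-like, 0.20 in IP-like, 0.31 in migrating and 0.39 in immature neuron-like cells, and in red blood cell-like cells, as given above. The part of free RNA in the Epha5 values was not tested. Dcc was lower in GE-like cells, from 961 to 764 CPM (-0.33, -0.37 to -0.29), while Robo2 (0.04), Efnb2 (0.02) and Ephb1 (0.02) lay near 0.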

How the data were processed

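RNA-seq counts per gene, as deposited, were made by the authors from NPC cultures. Alignment was to mm10, and HISAT2 and DESeq2 are among the tools named in the submitters' notes, while no source used here gives the counting program or strand setting. scRNA-seq UMI counts were deposited by the authors from Cell Ranger 7.0.0. LACE-seq libraries were not analysed here. The members and gene lists were chosen with earlier results of these data known.

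Cultures (16962903 to 22708400 counts) were compared with edgeR 4.0.16 in R 4.3.3, using TMM scaling, a low-count filter and the quasi-likelihood test over all 14432 genes, with Benjamini-Hochberg adjustment and a threshold of 0.05. Cells were clustered with Seurat 5.3.0 without the guidance and pathway genes, and named from marker lists, with naming limits set after the clusters had been seen. The endothelial-like cluster had a median UMI count of 0.193 of its sample. In 1 AP-like cluster, with 197 WT and 220 cKO cells, this value was 0.25. Doublets were called and kept, and removed only as an alternative. UMIs were summed per class and embryo, with exact 95% intervals that cover counting error only, a limit of 200 UMIs and a size rule of 1.5-fold. Genes named in the text are all members plus the 6 pathway genes with the largest called changes under the rule set with the lists. Alternatives were other scalings, filters, DESeq2 1.42.0, limma-voom 3.58.1, a replicate block, a sex covariate, leaving out each culture, other cluster resolutions, doublet removal, a gene minimum and equal weight per cell, the last 4 applied also to the class with the highest level of each gene. Leaving out the uneven cluster was chosen after seeing the data. Replicate numbers were not used to pair the cultures in the main test, and whether they mark pairs is not stated.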

Additional observations from a re-analysis of the deposited data

Results flagged for a closer look

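Among guidance genes with at least 200 UMIs in both classes, 7 had cKO-over-WT ratios of opposite sign in AP-like and immature neuron-like cells, each with a counting interval that left out 0. In 4 of them at least 1 of the ratios was past 1.5-fold. Epha6 had a log2 ratio of 0.69 in AP-like and -1.49 in immature neuron-like cells. It was also a leading gene of the uneven cluster (160 WT and 546 cKO cells), which was placed with the migrating neuron-like cells. Over migrating and immature neuron-like cells together Epha6 was at 0.38. Slit2 was lower in AP-like and higher in immature neuron-like cells, at -0.60 and 0.74. Ntn4 stood at 0.39 and -0.85, and Ephb1 at -0.69 and 0.15. The other 3 were Robo2 (0.46 and -0.37), Unc5d (0.40 and -0.40) and Robo1 (0.14 and -0.40), of which Robo1 was at -0.14 in AP-like cells with doublets removed. Much of the AP-like Robo2 and Unc5d signal lay in called doublets. The difference between the classes was not tested, because each genotype is 1 embryo.

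Of the genes called in cultures with at least 200 UMIs in AP-like cells, 4 had an AP-like ratio of the opposite sign. For 2 of these the AP-like interval left out 0. Efnb2 had a log2 fold change of -1.01 in cultures and a log2 ratio of 0.20 in AP-like cells, and Robo2 had -0.56 and 0.46. Much of the AP-like Robo2 signal lay in called doublets, and Robo2 also stood at 102 and 446 CPM in red blood cell-like cells. For Efnb3 (-1.04 and 0.36) and Efna4 (-0.64 and 0.08) the AP-like interval included 0. Under 200 UMIs, Ntn1 stood at 0.71 in cultures and -0.64 in AP-like cells (-1.12 to -0.16, 150 UMIs). Efna3 stood at -1.41 and 0.80 (0.05 to 1.60, 75 UMIs). These differences were not tested either.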

How the results depend on the processing

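Of the 18 guidance genes called in cultures, 13 were called in every alternative that tested them, and none of the 18 changed sign. Robo1, Efna4, Slit3, Ntn4 and Unc5a lost the call in 7, 3, 2, 2 and 2 alternatives. Robo3 and Slit3 were not tested where a mean of at least 1 CPM was required. The replicate block gave 11 higher and 10 lower guidance genes against 9 and 9. Deviations of same-numbered cultures had correlations of 0.264, -0.047 and 0.116, against -0.344 to 0.286 for other pairs. The labels do not say whether same-numbered cultures were paired, and so few cultures cannot settle it. Ephb2, Efna2, Efnb1 and Unc5c, not called, passed in 2, 3, 2 and 3 alternatives. Signs turned only among uncalled genes: Epha4 was at -0.0001 without the low-count filter, and leaving out 1 culture gave -0.23 to 0.33 for Epha1, -0.0455 to 0.0423 for Epha4, -0.28 to 0.0445 for Ephb4, -0.21 to 0.0841 for Ephb6 and -0.0964 to 0.0056 for Neo1, and the cause was not tested. In excitatory neuron-like cells the count past 1.5-fold went from 0 to 1 at resolution 0.4, with doublets removed, with equal weight per cell and without the uneven cluster, and to 2 at resolution 1.2. In AP-like cells equal weight per cell gave 3 in place of 6, and resolution 1.2 gave 5, where Slit1 had 189 UMIs. The highest class was the same in both embryos for 25 to 29 of the 36 genes over the alternatives, and was the class given in the report for 28 to 36 genes in WT and 29 to 36 in cKO. The cells come from 1 embryo per genotype, so no spread between embryos is known.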
